A study of Mus musculus with 6 samples.

Results

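The transcription machinery examined here consists of the RNA polymerases, their general initiation factors and the Mediator co-activator in retinal ganglion cells, the neurons that carry the output of the retina to the brain. Members were all rows of the deposited gene count table whose symbol begins with Polr1, Polr2 or Polr3 and a letter, with Gtf2 or Gtf3, or with Taf or Med and a number, leaving out pseudogene symbols. This gave 106 of 22413 genes: 8 Polr1, 13 Polr2, 9 Polr3, 16 Gtf2, 7 Gtf3, 22 Taf and 31 Med symbols. The Med symbols include Med9os, an RNA gene that lies beside Med9 and encodes no Mediator subunit. The choice used symbols and no measured value.

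The study sequenced bulk RNA of retinal ganglion cells from adult mice in 2 genotypes, with 3 libraries each. The Cre mice were Tgfbr1flx/flx;Vglut2Cre/+, and the control mice were Tgfbr1flx/flx;Vglut2+/+, so both genotypes carried the floxed Tgfbr1 alleles and differed in the Cre allele. Tgfbr1 encodes the type I receptor for TGF-beta, and Vglut2 (Slc17a6) encodes a vesicular glutamate transporter of retinal ganglion cells, so Cre acts in the cells that use, or once used, the Vglut2 locus. How the cells were isolated, and whether a library holds the cells of 1 animal or of several, is not given in the sources used here, so the p-values below measure the spread between these libraries. Each library was made from 1 ng of total RNA. In the text below, values in a group of 3 are in the order of libraries 1, 2 and 3 of that genotype.

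RNA polymerase I makes the ribosomal RNA precursor, RNA polymerase II makes messenger RNA, and RNA polymerase III makes transfer RNA, the small ribosomal RNA and other short RNAs. Each is recruited to its promoters by general factors: TFIIA to TFIIH and the TBP-associated factors of TFIID for polymerase II, the TBP-associated factors of SL1 for polymerase I, and TFIIIA and TFIIIC for polymerase III. Mediator is a large complex of head, middle, tail and kinase modules that passes signals from DNA-bound activators to polymerase II.

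Library totals were 13936519, 21126291 and 8098891 counts in the Cre libraries, against 11609621, 7486359 and 16372260 counts in the controls, and 3 counts, the limit that a count of 0 allows, corresponded to 0.142 to 0.401 CPM (counts scaled by the library total). A gene was called detected at 10 or more counts, which 6738, 7209 and 5790 genes reached in the Cre libraries and 4258, 4463 and 4863 in the controls. Tgfbr1 had 46, 0 and 793 counts in the Cre libraries and 1, 0 and 1538 in the controls. Those counts cover the whole gene and not only the floxed part, so they do not check the genotype labels. Of 21 markers of retinal ganglion cells, 13, 15 and 13 were detected in the Cre libraries and 13, 13 and 9 in the controls, with summed levels of 4234 to 7432 CPM and 3049 to 6435 CPM. Of 10 amacrine cell markers, 3, 6 and 4 were detected in the Cre libraries and 2, 3 and 2 in the controls, with summed levels of 167, 799 and 247 CPM and of 326, 304 and 468 CPM. Of 7 Müller glia markers, 2, 2 and 3 were detected in the Cre libraries and 1, 3 and 3 in the controls, with summed levels of 99.2, 48.99 and 509 CPM and of 124, 419 and 415 CPM. Rod and cone markers summed to at most 13.0 CPM and microglial markers to at most 9.23 CPM in any library. Control library 3 stood apart: 13 of 14 endothelial markers were detected there with a sum of 9059 CPM, against 168 to 797 CPM in the other libraries. Of the ganglion cell markers in control 3, Slc17a6 had 0 counts and Thy1 had 1, while Rbpms had 4203 and Pou4f1 had 1394. The part of these markers and of control 3 in the values below was not tested. In bulk samples, fewer cells of a type and less RNA per cell cannot be told apart.

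No member passed the test between genotypes after adjustment. The edgeR quasi-likelihood test was run on the 5727 genes that passed its filter on low counts, 57 of them members, and 0 genes passed an adjusted p of 0.05 (background 0%), the smallest adjusted p being 0.681. At an unadjusted p under 0.05, edgeR called 281 genes (4.91%), 257 of them higher in Cre libraries (4.49%) and 24 lower (0.419%). Among the members it called 2 at that level, Med20 (higher) and Gtf2e2 (lower). DESeq2 called 305 genes (5.33%) at an adjusted p of 0.05, of which 3 were members: Med20, Taf1 and Gtf2f1. It gave no adjusted p to 828 of the 5727 genes, Gtf2e2 among them, and the share counts these genes as tested. The limma voom test called 88 genes (1.54%), of which Med20 was the 1 member. On simulated data, edgeR and limma voom recovered none of the 4-fold and 16-fold changes, and most DESeq2 calls were of unchanged genes. Those data gave all genes a single spread, that of these libraries, and larger changes were not simulated. With that spread, 0 calls do not show that levels were equal. The limma voom test called no gene on the simulated data, unlike on these libraries. The simulation therefore does not decide which of the DESeq2 or voom calls here are of changed genes. The spread between libraries of a genotype was wide, with a biological coefficient of variation of 2.04 over the tested genes. Of the 57 tested members, 32 (56.1%) had a positive log2 fold change, that is, a higher fitted level in Cre libraries, against 54.2% of all genes tested. Their median log2 fold change was 0.34, against 0.14 over all genes tested. With DESeq2's size factors in place of edgeR's TMM factors both medians were lower, at -0.05 for the members and -0.13 for all genes, a shift of 0.278 for all genes.

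The libraries differed in how many members they held. Of the 106 members, 67, 63 and 57 were detected in the Cre libraries and 40, 48 and 45 in the controls, means of 62.3 ± 5.0 and 44.3 ± 4.0 (SD, n = 3 each). Every Cre library held more members than every control, a ratio of means of 1.41. The same held for all genes, with means of 6579 ± 723 in Cre libraries and 4528 ± 308 in controls and a ratio of 1.45. After each library was thinned at random to the smallest total, 7486359 counts, the members detected were 63, 60 and 57 in Cre libraries and 40, 48 and 45 in controls. The thinned numbers of all genes detected were 6295, 6857 and 5746 in Cre libraries and 4057, 4463 and 4654 in controls, so the order of the genotypes was the same at equal depth. Without control 3 the difference of the mean numbers detected was 18.3 members, against 18 with it. Summed over all members, the level was 6708, 8040 and 5965 CPM in Cre libraries and 6254, 7351 and 5750 CPM in controls, with overlapping groups. The difference of the mean sums, 453 CPM, was -115 CPM without Cre 2.

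**Figure D1:**
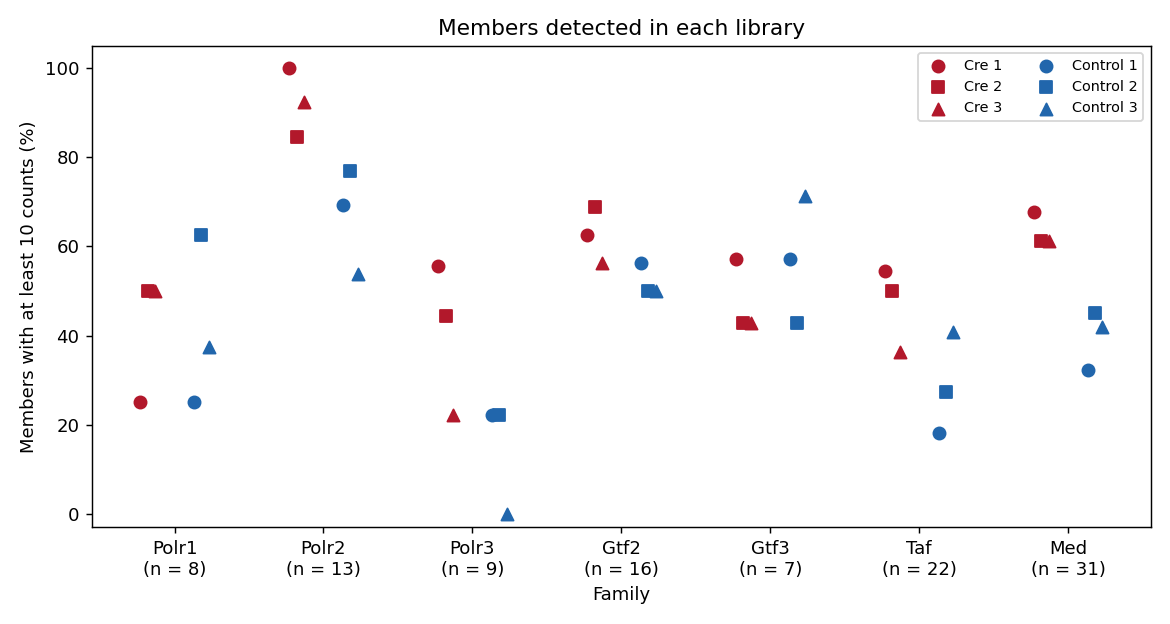
Share of the members of each family (y axis, %) with at least 10 counts in each library, Cre libraries in red left of controls in blue, with a marker shape for each library number. Polr2 shows 13, 11 and 12 of 13 members in Cre libraries and 9, 10 and 7 in controls, and Polr3 includes a control library with 0 of 9.

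Single values were mostly either absent or high, among the members as among all genes. Of the 636 member values (106 members in 6 libraries), 244 (38.4%) were 0 counts, 72 (11.3%) were 1 to 9 counts, 35 (5.5%) were 10 to 99 counts and 285 (44.8%) were 100 counts or more. Over members with 10 counts in some library, 35.5% of values were 0 counts and 48.5% were 100 or more. Over all genes with 10 counts in some library, these shares were 39.3% and 38.8%. The 98 members that reached 10 counts in some library included 19 detected in 1 library, 20 in 2, 16 in 3, 15 in 4, 15 in 5 and 13 in all 6. Detection in a single library made up 19.4% of these members, against 32.7% of the 11977 genes of the table that reached 10 counts somewhere. Detection in all 6 made up 13.3% of the members, against 9.99% of those genes, and neither difference was tested. The median of the mean FPKM (fragments scaled to gene length and depth) was 1.70 for members detected in 1 library and 89.5 for those in all 6. That mean is over all 6 libraries, zeros included, so detection in fewer libraries lowers it by construction. The median gene length, as implied by the deposited FPKM, was 1859 bases in the 13 members detected in all 6 and 3177 bases in the 19 detected in 1.

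**Figure D2:**
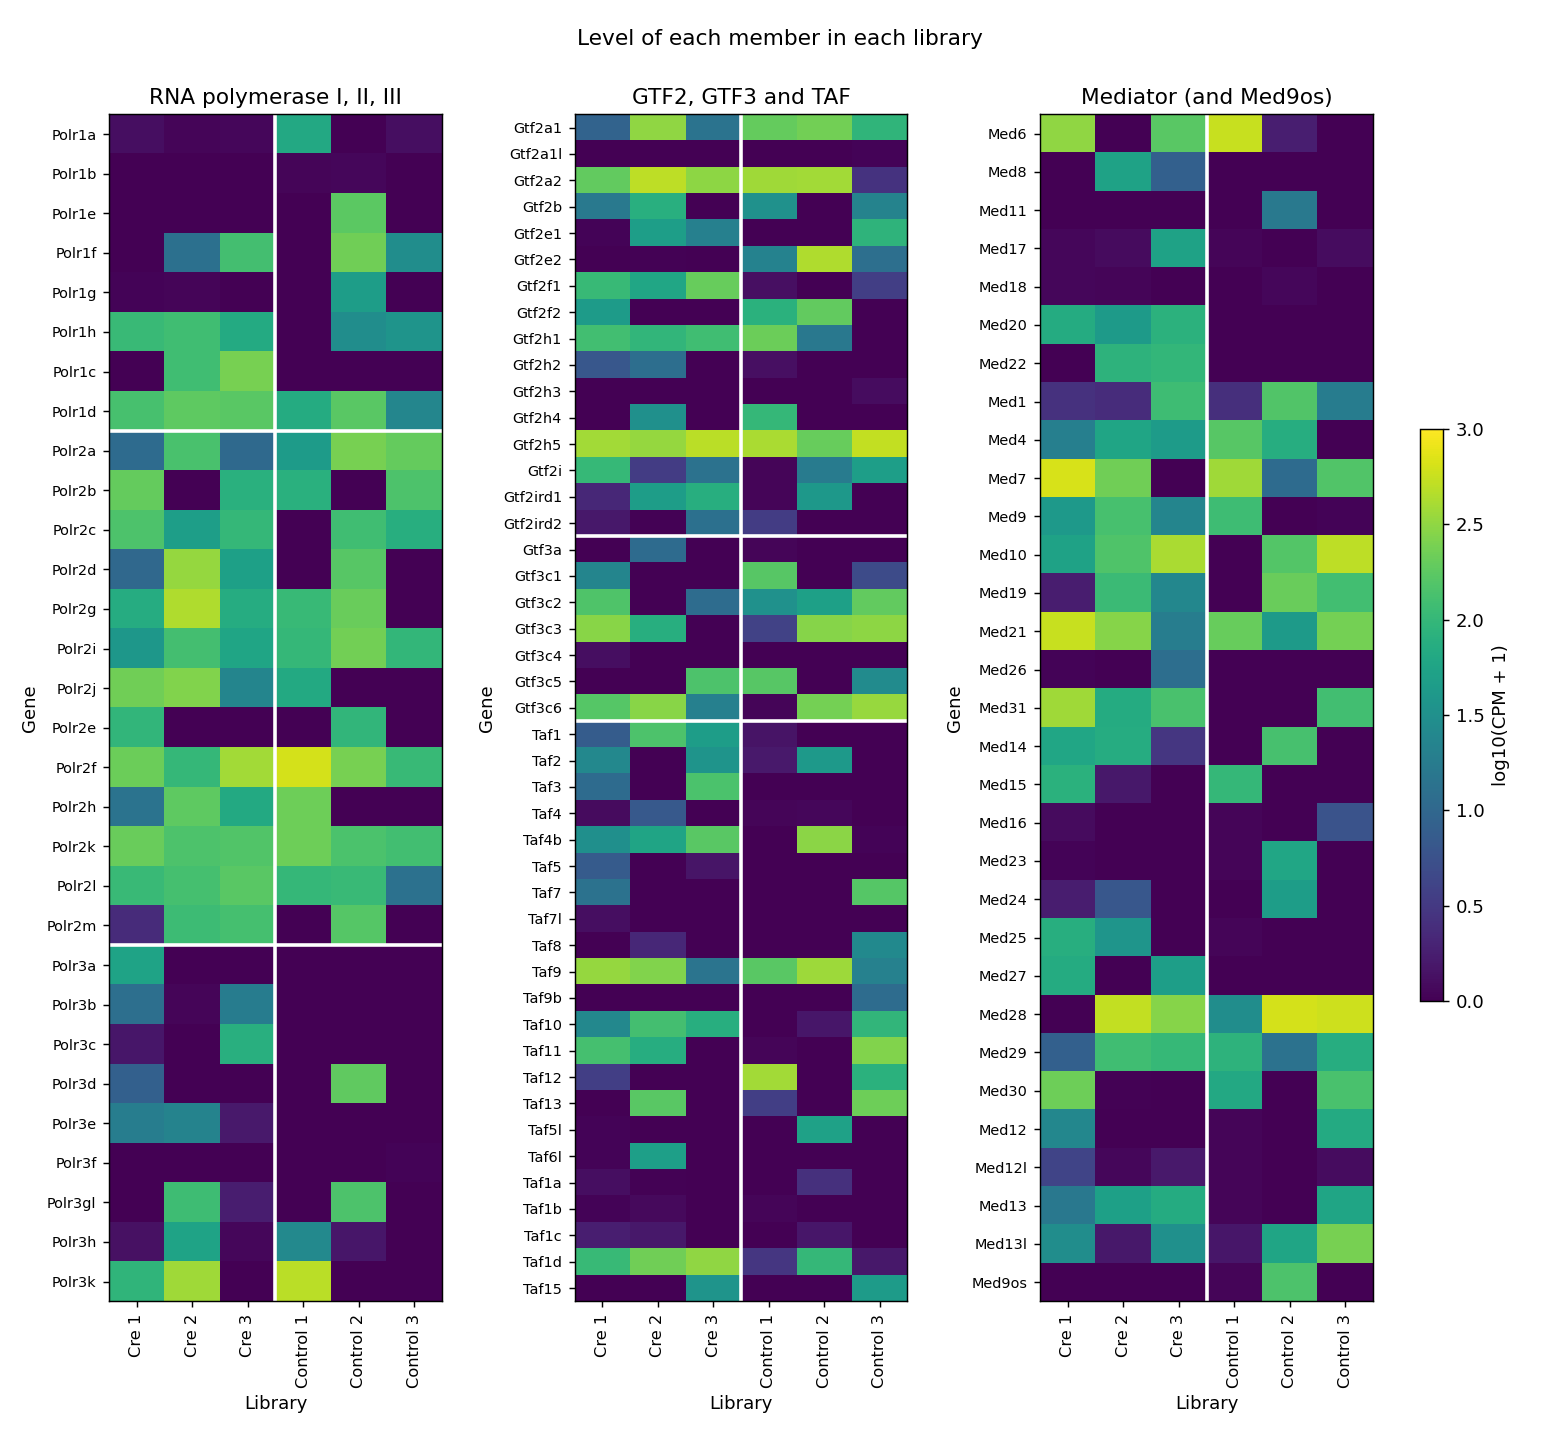
Level of each member in each library as log10(CPM + 1), by family, with the 3 Cre libraries left of the 3 controls and a white line between them. Many members are at 0 in some libraries and high in others of the same genotype, while 13 were detected in all 6.

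Between-genotype separation was counted for the 98 members in the same way as for the 11977 genes. All Cre libraries lay above all controls for 8 members (8.16%; background 8%): Polr1h, Polr2l, Polr3b, Polr3e, Gtf2f1, Taf1, Taf1d and Med20. All Cre libraries lay below all controls for 1 member, Gtf2e2 (1.02%; background 1.4%). Both shares were near the background. Without control library 3 the counts were 14 (14.3%; background 13.2%) and 5 (5.1%; background 4.72%). There were 21 members (21.4%) detected in some Cre library and in no control, against 31.8% of the 11977 genes, and 11 (11.2%) detected in some control and in no Cre library, against 12.2%. Detection in all Cre libraries and no control was seen for 2 members, Taf1 and Med20 (background 2.29%), and detection in all controls and no Cre library for 1, Gtf2e2 (background 0.134%).

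RNA polymerase II was the most completely detected of the enzymes, and 3 of the 5 small subunits that it shares with polymerases I and III were detected in all 6 libraries. Of its 12 subunits in the table, 12, 10 and 11 were detected in Cre libraries and 9, 9 and 7 in controls. The summed level of the Polr2 family was 1315, 2014 and 1282 CPM in Cre libraries, against 1565, 1699 and 748 CPM in controls, means of 1537 ± 414 and 1337 ± 514 (SD, n = 3 each). The groups overlapped, and control 3 was the lowest library. The difference of the mean sums, 199.5 CPM with all libraries, was -94.9 CPM without control 3 and -39.2 CPM without Cre 2. Of 12 Polr2 members tested, 9 had a positive and 3 a negative log2 fold change (median 0.63, or 0.31 with DESeq2's size factors), and 0 passed the test.

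Polr2f (Rpb6), a shared subunit of the polymerase core, had the highest mean level per length of all members, 490.4 FPKM over the 6 libraries. It was at 212, 98.9 and 380.1 CPM in Cre libraries and 642, 239 and 103 CPM in controls, so control 1 was the highest and the groups overlapped. Polr2k (Rpb12), a small zinc-binding shared subunit, was among the most even members, at 203, 143 and 150.3 CPM in Cre libraries and 216, 141 and 124 CPM in controls. Its means were 165 ± 32.3 CPM in Cre libraries and 160.4 ± 48.8 CPM in controls (SD, n = 3 each), and its log2 fold change was 0.14 ± 2.12 (SE), or -0.12 with DESeq2's size factors and -0.17 to 0.57 with 1 library left out. Polr2l (Rpb10), another small shared subunit, was at 107, 131 and 169 CPM in Cre libraries and 98.7, 107 and 12.1 CPM in controls. The groups of Polr2l did not overlap, although Cre 1 and control 2 differed by under 1 CPM, and its log2 fold change of 0.98 ± 2.67 (SE) had an adjusted p of 0.9998 by edgeR. The 2 other shared subunits were found less often: Polr2e was detected in Cre 1 and control 2, and Polr2h in the 3 Cre libraries and control 1.

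Of the subunits that belong to polymerase II alone, Polr2a (Rpb1) carries the catalytic site and the C-terminal repeat domain. Polr2a was detected in every library, at 10.2, 138 and 9.63 CPM in Cre libraries and 43.2, 239 and 195 CPM in controls. Cre 1 and Cre 3 were the lowest libraries and Cre 2 lay within the range of the controls, and the log2 fold change was -1.43 ± 2.78 (SE; edgeR adjusted p = 0.9998), or -3.76 without Cre 2. Polr2i (Rpb9), which takes part in proofreading, was at 37.3, 126 and 56.9 CPM in Cre libraries and 98.8, 230.3 and 96.02 CPM in controls, again with overlap. Polr2g (Rpb7), a subunit of the stalk, was at 71.3, 434 and 70.6 CPM in Cre libraries and 105, 204 and 0 CPM in controls, with Cre 2 highest and control 3 at 0 counts. Polr2j (Rpb11), an assembly subunit, was at 220.0, 271 and 22.1 CPM in Cre libraries and 64.9, 0 and 0 CPM in controls. Only Cre 3 of the Polr2j values in Cre libraries lay below control 1, and the log2 fold change was 2.92 ± 3.24 (SE; edgeR adjusted p = 0.9998), or 14.28 without control 1, whose removal leaves the controls at 0 counts. Polr2b, the second-largest subunit, had 0 counts in Cre 2 and in control 2, where Polr2a was at 138 and 239 CPM. Reads of Polr2k, Polr2i and Polr2c are uncertain where these genes overlap Spag1, Tbcb and Dok4, since the strand setting of the counting is not given in the sources used here. The same holds for Polr2b (Igfbp7), Polr1e (Fbxo10), Polr1g (Ercc1), Polr3b (Gm17249), Gtf2f2 (Kctd4), Gtf3a (Mtif3), Med9 (Rasd1), Med13 (Brip1os), Med14 (Gm14634), Med31 (4930563E22Rik) and Med12l, each with the gene it overlaps in brackets, several genes in the case of Med12l.

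**Figure D3:**
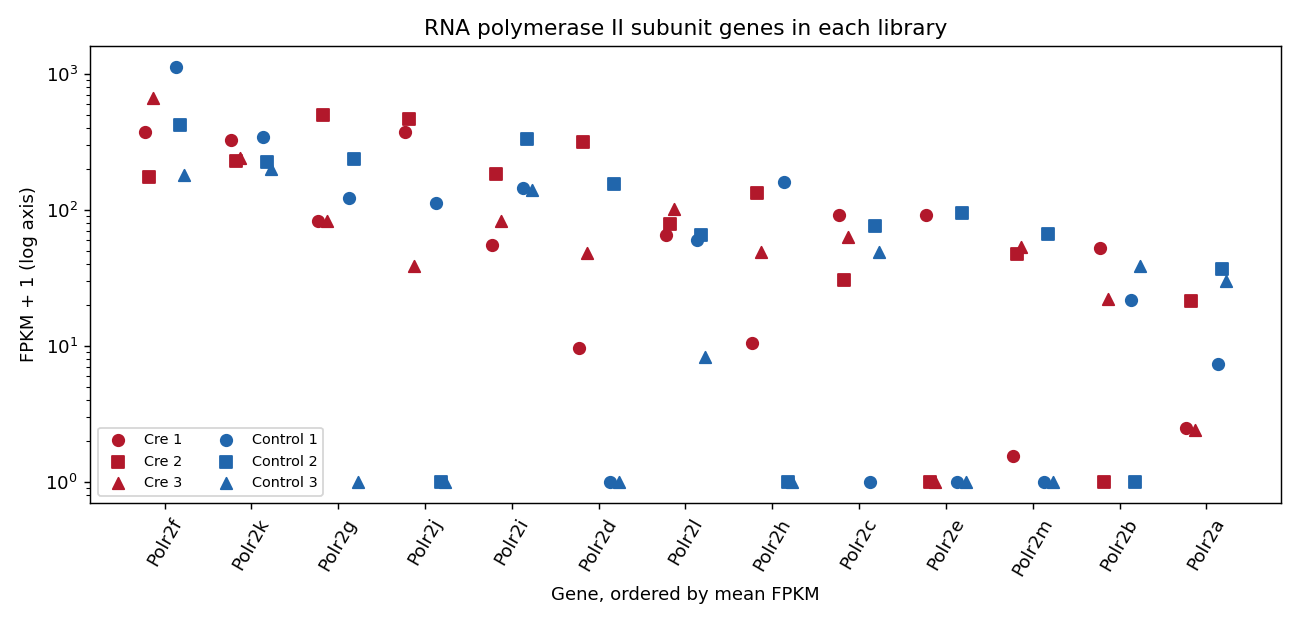
FPKM + 1 on a log axis of the 13 Polr2 genes in each library, ordered by mean FPKM, Cre libraries in red left of controls in blue. Points at 1 stand for 0 FPKM, and Polr2f, Polr2k, Polr2i, Polr2l and Polr2a stay above that line in all 6 libraries.

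The promoter windows of 5 members are shown because they stand for the range of behaviour above and below: the most abundant shared subunit (Polr2f), the catalytic subunit (Polr2a), the shared subunit whose groups did not overlap (Polr2l), the steadiest general factor (Gtf2h5) and the Mediator subunit with the lowest p (Med20). Each run is the 100 bases before the gene start in RefSeq (GRCm38.p6), read 5′ to 3′ on the strand of the gene: chr15:79141225-79141324 (plus strand) for Polr2f, chr11:69758634-69758733 (minus strand) for Polr2a, chr7:141475154-141475253 (minus strand) for Polr2l, chr17:6079728-6079827 (plus strand) for Gtf2h5 and chr17:47611485-47611584 (plus strand) for Med20. Capitals mark an ETS core (CCGGAA), a GC box (GGGCGG) or a TATA box (TATAAA), each searched on both strands.
Polr2f: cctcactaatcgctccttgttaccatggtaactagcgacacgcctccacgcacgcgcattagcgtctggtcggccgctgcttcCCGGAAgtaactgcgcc
Polr2a: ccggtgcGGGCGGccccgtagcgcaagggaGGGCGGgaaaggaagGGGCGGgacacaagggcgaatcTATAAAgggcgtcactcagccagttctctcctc
Polr2l: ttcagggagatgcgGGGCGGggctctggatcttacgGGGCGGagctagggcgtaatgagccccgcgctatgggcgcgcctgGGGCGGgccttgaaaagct
Gtf2h5: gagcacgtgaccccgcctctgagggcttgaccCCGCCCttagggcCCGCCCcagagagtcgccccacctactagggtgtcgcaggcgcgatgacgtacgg
Med20: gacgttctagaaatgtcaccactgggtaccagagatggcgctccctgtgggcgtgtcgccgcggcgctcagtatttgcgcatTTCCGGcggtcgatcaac
Polr2f and Med20 each held an ETS core near the start, Gtf2h5 held 2 GC boxes and Polr2l held 3 GC boxes. Polr2a held 3 GC boxes and a TATA box. RefSeq windows were matched for 89 of the 106 members. An ETS core was in 22 of the 89 (24.7%), against 9.94% of the 16522 genes of the table with a window and 7.48% of all 27025 windows of the same length. The GC box was in 44.9% of member windows, against 34.0% of table genes. The NRF1 motif GCGCATGC was in 6.74% against 2.14%, the CCAAT box (CCAAT) in 22.5% against 20.4% and the TATA box in 4.49% against 4.07%. The YY1 core AAGATGG was in 2 of 89 windows (2.25%), against 1.52%. Mean GC content was 63.7% in member windows and 59.5% in table genes, and this difference was not tested. Among the 12 always-detected members with a window, an ETS core was in 2 (16.7%) and a GC box in 4 (33.3%). Each motif was counted on its own, and GC boxes and ETS cores can share bases. These matches describe letters, not binding.

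Among the RNA polymerase I genes named Polr1, Polr1d was detected in all 6 libraries, Polr1h in 5 and Polr1f in 4, and each of the others in 2 or fewer. Counted with its shared Polr2 subunits, polymerase I had 7, 8 and 8 of 13 detected in Cre libraries and 6, 9 and 6 in controls. Of the 8 Polr1 members, 2, 4 and 4 were detected in Cre libraries and 2, 5 and 3 in controls. Their summed level was 242, 430 and 605 CPM in Cre libraries, against 133, 643 and 85.8 CPM in controls, with overlap. Polr1d, a subunit of the assembly platform shared by polymerases I and III, was in all 6 libraries, at 134, 179 and 172 CPM in Cre libraries and 68.8, 170.4 and 22.97 CPM in controls. The control 2 value of Polr1d lay among those of the Cre libraries, and the log2 fold change was 1.06 ± 2.54 (SE; edgeR adjusted p = 0.9998). Polr1c, its partner in that platform, was at 0, 121 and 240.4 CPM in Cre libraries and at 0 counts in the 3 controls. In counts pooled over the libraries, Polr1c was at least 1232-fold higher in Cre libraries against a floor of 3 counts over the controls. That bound allows for counting error in the controls, not for the spread between libraries, and Polr1c was absent from Cre 1. Polr1h, a small zinc-ribbon subunit of polymerase I, was at 108, 118 and 66.6 CPM in Cre libraries and 0, 28.9 and 34.3 CPM in controls, with every Cre library above every control. For Polr1h the log2 fold change was 2.45 ± 3.19 (SE; edgeR adjusted p = 0.9998). Polr1f, a subunit of the polymerase I stalk, was at 0, 11.9 and 126 CPM in Cre libraries and 0, 224 and 28.2 CPM in controls, with overlap. Polr1a, the largest subunit, was at 0.287, 0.0947 and 0.123 CPM in Cre libraries and 63.9, 0 and 0.305 CPM in controls. Its level rests on control 1, and the other 5 libraries held 0 to 5 counts. Polr1e was detected only in control 2 (1300 counts) and Polr1g only in control 2 (342 counts).

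The genes named Polr3 were found in scattered libraries, and none of them was detected in control 3. Counted with its shared Polr1 and Polr2 subunits, polymerase III had 11, 10 and 8 of 16 detected in Cre libraries and 7, 7 and 4 in controls. Of the 9 Polr3 members, 5, 4 and 2 were detected in Cre libraries and 2, 2 and 0 in controls. Their summed level was 182, 563 and 95.9 CPM in Cre libraries, against 511, 329 and 0.0611 CPM in controls. The difference of the mean sums, 0.304 CPM, was -140 CPM without control 3 and -141 CPM without Cre 2. Control 3 held 1 count in all for the 9 genes, of Polr3f. Polr3k (Rpc11), which takes part in termination, was at 89.8, 371 and 0 CPM in Cre libraries and 486, 0 and 0 CPM in controls. It was the 1 Polr3 member that passed the filter, and its log2 fold change was -0.19 ± 2.82 (SE; edgeR adjusted p = 0.9998). The direction of Polr3k turned with the setting, at 4.04 by limma voom and 14.05 without control 1, against -1.71 without Cre 2. Polr3d, a subunit of polymerase III alone, was at 7.39, 0 and 0 CPM in Cre libraries and 0, 184 and 0 CPM in controls, so control 2 held most of it. Polr3c, an initiation subunit, was at 0.502, 0 and 77.05 CPM in Cre libraries and at 0 counts in each control. Polr3a, the largest subunit, was at 54.5, 0 and 0 CPM in Cre libraries and at 0 counts in each control. Polr3a and Polr3c each rest on 1 Cre library, Cre 1 for Polr3a and Cre 3 for Polr3c. Polr3e, a subunit of the initiation and termination subcomplex, was at 17.9, 20.97 and 0.617 CPM in Cre libraries and at 0 counts in each control. In counts pooled over the libraries it was at least 191-fold higher, a bound that leaves out the spread between libraries. Polr3b, the second-largest subunit, also had no overlap, with 161, 2 and 141 counts in Cre libraries and 0 counts in each control. Polr3e in Cre 3 (5 counts) and Polr3b in Cre 2 (2 counts) were below the detection minimum.

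Among the general factors of polymerase II, TFIIA and the small TFIIH subunit Gtf2h5 were present throughout, while the subunits of TFIIE and TFIIF were mostly found in different libraries. Of the 16 Gtf2 members, 10, 11 and 9 were detected in Cre libraries and 9, 8 and 8 in controls. These include 3 genes of TFII-I (Gtf2i, Gtf2ird1 and Gtf2ird2), which lie outside TFIIA to TFIIH. Of those 3, 2, 2 and 3 were detected in Cre libraries and 1, 2 and 1 in controls. The summed level of the 16 Gtf2 members was 973, 1516 and 1252 CPM in Cre libraries, against 1433, 1500 and 798 CPM in controls. The difference of the mean sums, 3.31 CPM, was -131 CPM without Cre 2 and -219 CPM without control 3. Of 11 tested, 7 had a positive and 4 a negative log2 fold change (median 0.47), and 0 passed the test. Gtf2h5 (p8), which stabilises TFIIH, was at 382, 334 and 490.3 CPM in Cre libraries and 420.1, 198 and 535 CPM in controls. Its means were 402 ± 80.3 CPM in Cre libraries and 384 ± 171 CPM in controls (SD, n = 3 each), and its log2 fold change was 0.12 ± 0.98 (SE), with the smallest standard error of the tested members. That fold change was -0.15 with DESeq2's size factors and -0.28 without control 2. Gtf2a2, the small subunit of TFIIA, was at 189, 497 and 309 CPM in Cre libraries and 369, 378 and 1.77 CPM in controls, where control 3 was low. Gtf2a1, which gives the large TFIIA chains, was at 7.96, 320.5 and 12.96 CPM in Cre libraries and 197, 231 and 90.6 CPM in controls. Cre 1 and Cre 3 held the lowest Gtf2a1 levels and Cre 2 the highest, so the groups overlapped. The germ-cell paralogue Gtf2a1l had at most 1 count in any library.

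TFIIE and TFIIF each have a pair of subunits, and both partners were detected together in 1 library for each factor. Gtf2e2 (chr8:33731914-33777173), the beta subunit of TFIIE, had 0, 1 and 0 counts in Cre libraries and 238, 3253 and 185 counts in controls. In CPM this was 0, 0.0473 and 0 in Cre libraries and 20.5, 435 and 11.3 in controls, with every Cre library below every control. The ratio of the Cre to the control level, each from counts pooled over the 3 libraries and divided by their pooled totals, was 0.000224 (95% counting interval 5.66e-06 to 0.00125), which covers counting error only. The log2 fold change of Gtf2e2 was -12.19 ± 4.66 (SE; unadjusted p = 0.0161, adjusted p = 0.681, edgeR), lower in 3 of 3 Cre libraries, and over all alternatives that gave an adjusted p it ran from 0.101 to 1. Its partner Gtf2e1, the alpha subunit, had 1, 994 and 158 counts in Cre libraries and 0, 0 and 1448 counts in controls. Both TFIIE subunits were detected together in control 3. Gtf2f1 (chr17:57003401-57011394), the large subunit of TFIIF, was at 103, 58.9 and 201 CPM in Cre libraries and 0.345, 0 and 2.63 CPM in controls. The groups did not overlap, and its log2 fold change was 6.97 ± 3.86 (SE; edgeR adjusted p = 0.9998). DESeq2 gave Gtf2f1 an adjusted p of 0.0269, and over all alternatives that p ran from 0.0269 to 1. Gtf2f2, the small subunit of TFIIF, was at 43.7, 0 and 0 CPM in Cre libraries and 80.8, 187 and 0 CPM in controls, and both TFIIF subunits were detected together in Cre 1. Gtf2f2 had a log2 fold change of -2.24 ± 3.58 (SE; edgeR adjusted p = 0.9998), or -13.05 without Cre 1, the 1 Cre library that held it.

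The general factors of polymerase III had 0 members past the test, and most of their values came from TFIIIC. Of the 7 Gtf3 members, 4, 3 and 3 were detected in Cre libraries and 4, 3 and 5 in controls. Their summed level was 631, 376 and 174 CPM in Cre libraries, against 365, 567 and 866 CPM in controls, means of 394 ± 229 and 599 ± 252 (SD, n = 3 each). All 5 tested members had a negative log2 fold change by edgeR (median -0.45, 0 passed), but the median was 0.27 without control 3 and 0.03 without Cre 3. Gtf3c6, a subunit of TFIIIC, was at 163, 290.0 and 19.01 CPM in Cre libraries and 0.0861, 233 and 341 CPM in controls, with control 1 at 1 count. Gtf3c3, a TFIIIC subunit that contacts TFIIIB in yeast, was at 296, 75.6 and 0 CPM in Cre libraries and 2.93, 284 and 306 CPM in controls. Gtf3c5, a TFIIIC subunit that binds DNA, was at 0, 0 and 145 CPM in Cre libraries and 165, 0 and 27.1 CPM in controls. Each of these 3 members was below the detection minimum in at least 1 library, and the groups overlapped. Gtf3c1, the largest TFIIIC subunit, was at 22.4, 0 and 0 CPM in Cre libraries and 165, 0 and 3.79 CPM in controls. The log2 fold change of Gtf3c1 was -2.83 ± 3.66 (SE; edgeR adjusted p = 0.9998), and it was 2.26 without control 1 and -12.69 without Cre 1. Gtf3a (TFIIIA), which binds the gene of the small ribosomal RNA, was detected in Cre 2 alone, with 213 counts.

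Fewer Taf members were detected in controls 1 and 2 than in the other libraries, as was so for all genes. Of the 22 Taf members, 12, 11 and 8 were detected in Cre libraries and 4, 6 and 9 in controls. Of all 22413 genes, 6738, 7209 and 5790 were detected in Cre libraries and 4258, 4463 and 4863 in controls. For the 15 members of TFIID, including its paralogues, the numbers were 10, 8 and 6 in Cre libraries and 3, 3 and 8 in controls, so control 3 lay among the Cre libraries. The other Taf members are the SL1 subunits, Taf5l and Taf6l of the SAGA complex, and Taf15, which was placed in none of these complexes. The summed Taf level was 693, 1113 and 828 CPM in Cre libraries, against 557, 862 and 927 CPM in controls. The difference of the mean sums, 95.9 CPM, was -21.6 CPM without Cre 2 and -16.5 CPM without control 1. Of 9 tested, 5 had a positive and 4 a negative log2 fold change (median 0.42), and 0 passed the test. The Taf median was -0.55 without control 1 and 3.78 without control 3.

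Taf1 (chrX:101527572-101601789), the largest TFIID subunit and its scaffold, was at 6.53, 145 and 45.7 CPM in Cre libraries and 0.431, 0 and 0 CPM in controls. Every Cre library was above every control, whose 5 counts in all came from control 1. The log2 fold change of Taf1 was 8.59 ± 4.27 (SE; edgeR adjusted p = 0.9998), DESeq2 gave an adjusted p of 0.00692, and over all alternatives that p ran from 0.00692 to 1. Taf9, a histone-fold subunit of TFIID and SAGA, was detected in all 6 libraries, at 339, 267 and 13.1 CPM in Cre libraries and 168, 367 and 19.5 CPM in controls. The groups of Taf9 overlapped, with Cre 3 and control 3 low, and its reads are uncertain where it overlaps Ak6. Taf10, another histone-fold subunit of both complexes, was at 24.4, 127 and 74.2 CPM in Cre libraries and 0, 0.534 and 94.00 CPM in controls, and it overlaps Ilk. Taf12, the histone-fold partner of TAF4, was at 2.58, 0 and 0 CPM in Cre libraries and 384, 0 and 82.2 CPM in controls. For Taf12 the log2 fold change was -7.36 ± 4.16 (SE; edgeR adjusted p = 0.9998), and control 2 was at 0 counts, as were Cre 2 and Cre 3. It was -14.13 without Cre 1, the 1 Cre library with counts of Taf12. Taf13, a histone-fold subunit of TFIID, was at 0, 168 and 0 CPM in Cre libraries and 2.58, 0 and 219 CPM in controls, with Cre 2 and control 3 far above the rest.

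Paralogues within TFIID were not equally present. Taf4b had 424, 1158 and 1364 counts in Cre libraries and 0, 2263 and 1 in controls, while Taf4 had 3, 124 and 0 counts in Cre libraries and 1, 1 and 0 in controls. Taf9b was detected only in control 3, with 174 counts, and Taf7l had at most 4 counts in any library. Reads shared between such copies could be split by the counting, so the division between paralogues is uncertain. Of the 4 SL1 subunits, which load polymerase I, Taf1d was the 1 with more than 12 counts in any library. Taf1d was at 104, 221 and 318 CPM in Cre libraries and 1.98, 98.4 and 0.550 CPM in controls, with every Cre library above every control. Taf1d had a log2 fold change of 2.93 ± 2.85 (SE; edgeR adjusted p = 0.9998), or 7.22 without control 2, and the gene overlaps Cep295.

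**Figure D4:**
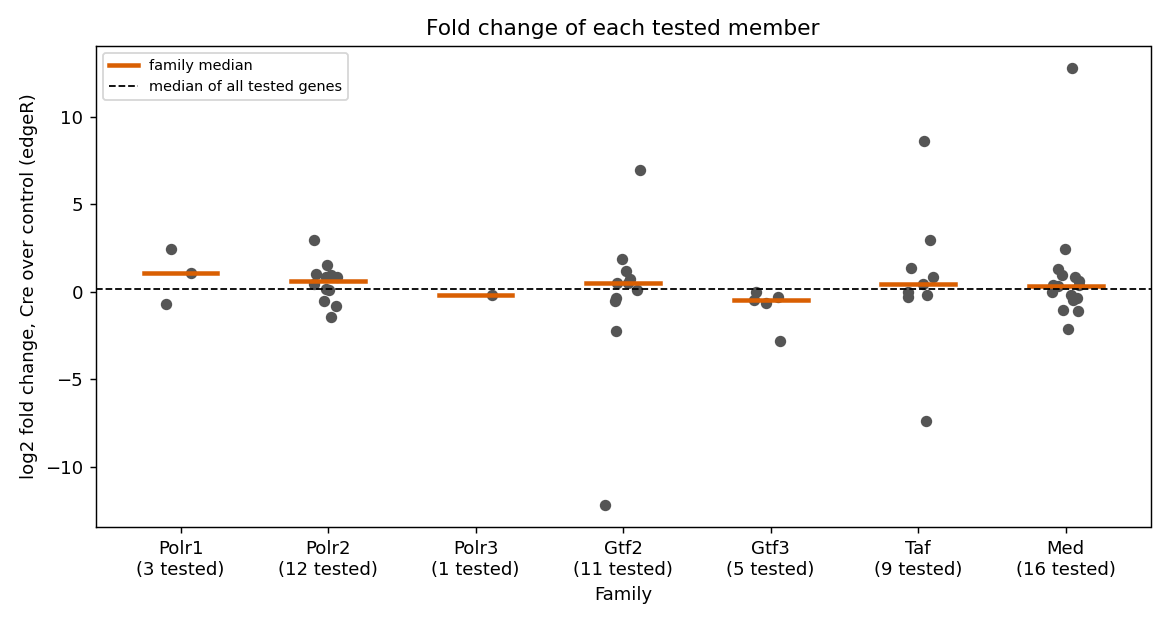
Log2 fold change (Cre over control, edgeR) of each of the 57 tested members as grey points by family, with the family median as an orange line and the median of all tested genes as a dashed line. Med20 at 12.78 and Gtf2e2 at -12.19 lie farthest from 0, and 0 of the points pass an adjusted p of 0.05.

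Mediator was detected most completely in its middle module, and few of its head subunits were detected in controls. Of the 30 Mediator proteins, 21, 19 and 19 were detected in Cre libraries and 10, 13 and 13 in controls. The summed level over the 31 Med symbols was 2673, 2028 and 1729 CPM in Cre libraries, against 1689, 1752 and 2325 CPM in controls, with overlap. The difference of the mean sums, 221 CPM, was -43.4 CPM without Cre 1. Of 16 tested, 9 had a positive and 7 a negative log2 fold change (median 0.35, or -0.0024 with DESeq2's size factors), and 0 passed the test. Of the 9 middle subunits, 8, 8 and 8 were detected in Cre libraries and 5, 6 and 6 in controls. Of the 7 head subunits, 2, 3 and 5 were detected in Cre libraries and 1, 1 and 0 in controls. Of the 9 tail subunits, 6, 5 and 3 were detected in Cre libraries and 4, 4 and 4 in controls. Every Cre library held more middle and more head subunits than every control, as it did for all members and for all genes detected, while the tail overlapped.

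Med20 (chr17:47611585-47624251, GRCm38.p6), a head subunit that forms a pair with MED18, had 956, 896 and 683 counts in Cre libraries and 0 counts in each of the 3 controls. In CPM this was 68.6, 42.4 and 84.3 in Cre libraries. In counts pooled over the libraries, Med20 was at least 694-fold higher against a floor of 3 counts over the controls. This bound allows for counting error in the controls, not for the spread between libraries. The log2 fold change of Med20, which depends on the prior count, was 12.78 ± 4.77 (SE; unadjusted p = 0.0148, adjusted p = 0.681, edgeR), higher in 3 of 3 Cre libraries. DESeq2 gave Med20 an adjusted p of 0.000143 and limma voom 0.0353, and over all alternatives that p ran from 0.000143 to 1. Its partner Med18 had at most 2 counts in any library. Med17, the head scaffold, was at 0.144, 0.237 and 52.7 CPM in Cre libraries and 0.0861, 0 and 0.244 CPM in controls, detected in Cre 3 alone. Med6, a head subunit that contacts the middle module, was at 318, 0 and 170.1 CPM in Cre libraries and 552, 0.801 and 0 CPM in controls, with control 1 the highest. Med8 and Med22, further head subunits, were at 0 counts in Cre 1 and in all controls, and were detected in Cre 2 and Cre 3. Control 3 held 4 counts over the 7 head genes, all of Med17.

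Med21, a subunit of the hinge between middle and head, was at 553, 282 and 17.8 CPM in Cre libraries and 202, 42.2 and 236 CPM in controls. Per length it averaged 285 FPKM over the 6 libraries, the second highest of the members. Med31, a small conserved subunit at the knob of the middle module, was at 376, 68.6 and 135 CPM in Cre libraries and 0, 0 and 124 CPM in controls. Med31 had a log2 fold change of 2.44 ± 3.02 (SE; edgeR adjusted p = 0.9998), and control 3, at 124 CPM, lay among the Cre libraries. Without control 3 it was 14.34, with the controls left at 0 counts, and without Cre 1 it was 1.24. Med1, the subunit that binds nuclear receptors, was detected in all 6 libraries, at 1.65, 1.42 and 117 CPM in Cre libraries and 1.55, 151 and 17.2 CPM in controls. Cre 1, Cre 2 and control 1 held 18 to 30 counts of Med1, so its detection there was marginal. Med14, the backbone that joins the modules, was at 59.1, 71.4 and 1.98 CPM in Cre libraries and 0, 132 and 0 CPM in controls, present in 1 control. Med29, a tail subunit of animals, was also in all 6 libraries, at 7.25, 118 and 101 CPM in Cre libraries and 85.4, 12.4 and 72.3 CPM in controls, with overlap.

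The kinase module, which can block the contact of Mediator with polymerase II, was represented by Med12, Med12l, Med13 and Med13l, and 4, 2 and 2 of the 4 were detected in Cre libraries, against 0, 1 and 3 in controls. Med12, the activator of the kinase, was at 23.2, 0 and 0 CPM in Cre libraries and 0.0861, 0 and 67.1 CPM in controls, detected in Cre 1 and control 3. Med13l, a paralogue of the link between kinase and core, was at 28.7, 0.568 and 31.1 CPM in Cre libraries and 0.517, 56.9 and 243 CPM in controls. Control 3 held most of the Med13l counts, and the log2 fold change was -2.13 ± 3.18 (SE; edgeR adjusted p = 0.9998), or -0.15 without control 3. Med13 had 206, 1060 and 562 counts in Cre libraries and 1, 0 and 928 in controls. The RNA gene Med9os (chr11:59946892-59948147, GRCm38.p6) was detected only in control 2, with 1082 counts, in a library where Med9 had 0 counts.

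**Figure D5:**
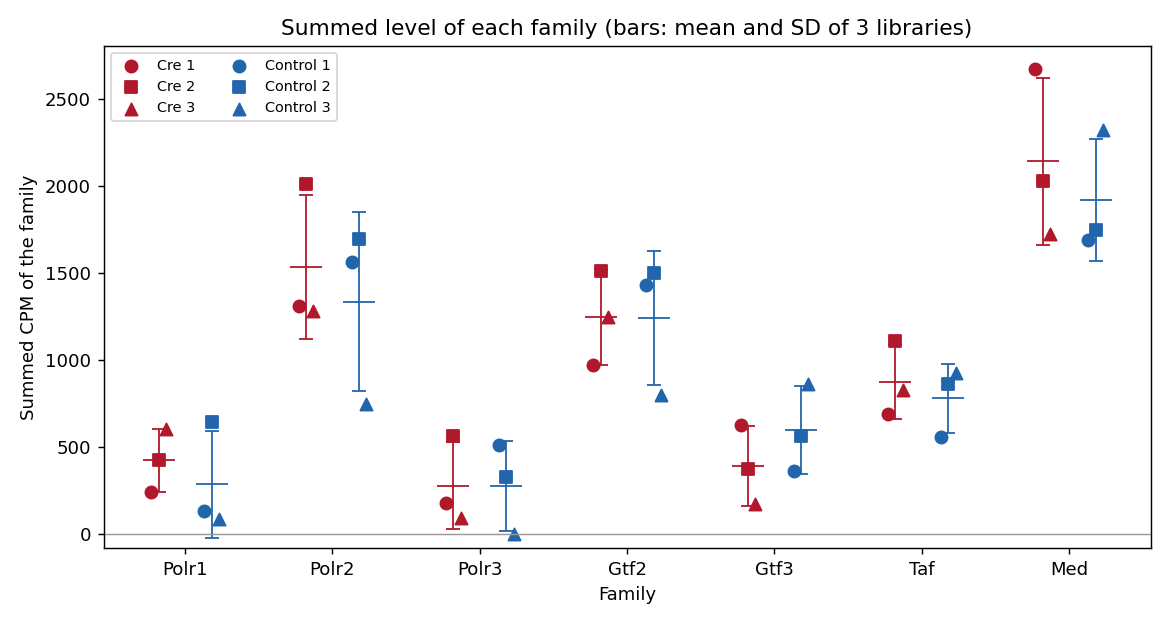
Summed CPM of each family in each library (points), with the mean and SD of the 3 libraries of each genotype, Cre libraries in red left of controls in blue. The genotypes overlap in all 7 families.

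Other genes of transcription, with Polrmt, Tfam, Tfb1m and Tfb2m of mitochondrial transcription among them, were read from the same fit. They were a list of 55 genes in the table, such as Tbp, the TFIIH helicases and kinase, the TFIIIB subunits and the elongation factors. Of these, 32, 28 and 27 were detected in Cre libraries and 21, 17 and 32 in controls. Of 33 tested, 20 had a positive and 13 a negative log2 fold change (median 0.65), 0 passed an adjusted p of 0.05, and 1 had an unadjusted p under 0.05. That gene was Snapc3, a subunit of the factor that drives small nuclear RNA genes, with 4183, 1400 and 404 counts in Cre libraries and 4, 0 and 9 in controls. Its log2 fold change was 8.96 ± 4.04 (SE; unadjusted p = 0.0376, adjusted p = 0.858, edgeR), with an adjusted p of 0.000747 by DESeq2 and a range of 0.000747 to 1 over all alternatives. Rrn3, which recruits polymerase I, was the 1 gene of the list with every Cre library below every control (3 genes, Ubtf, Snapc3 and Tfam, had every Cre library above, beside the backgrounds of 1.4% and 8% given for all genes), at 203, 6 and 753 counts in Cre libraries and 2035, 1301 and 2470 in controls. Tbp itself had 0, 2415 and 60 counts in Cre libraries and 30, 0 and 6234 in controls.

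There were 8 members under 10 counts in every library: Polr1b, Polr3f, Gtf2a1l, Gtf2h3, Gtf3c4, Taf7l, Taf1b and Med18. They include the second-largest subunit of polymerase I (Polr1b), a TFIIH subunit (Gtf2h3) and a TFIIIC subunit with acetyltransferase activity (Gtf3c4). The 49 members that were not tested include these 8, and the others did not pass the filter on low counts.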

How the data were processed

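The measurements are gene-level RNA-seq values of 6 libraries of mouse retinal ganglion cells, 3 per genotype. The authors deposited raw counts and FPKM, each for 22413 genes, and 0 columns belonged to other samples. The submitters' processing notes name the mm10 build and the tools DESeq2, HISAT2, HTSeq, fastp and R 3.2.0, but assign no role to them. The sources used here give neither the annotation nor the strand setting. The deposited FPKM could be rebuilt from the counts with a single length per gene, whole to within 0.01 bases, so they hold no scaling beyond length and column total. Per the labels' protocols, libraries were made with the VAHTS Universal V6 kit.

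CPM were computed from the counts by column total. The counts of all genes were tested with edgeR 4.0.16 (TMM, filterByExpr, quasi-likelihood F test, robust) on genotype alone, with Benjamini-Hochberg adjustment over the 5727 genes tested and a threshold of 0.05. Alternatives used DESeq2 1.42.0, limma voom 3.58.1, limma on log2(FPKM + 1) and log2(FPKM + 0.1), DESeq2 size factors, no filter, the replicate number as a block, and each library left out. The edgeR, voom and DESeq2 steps were tested on simulated data with 4-fold and 16-fold changes and a single spread for all genes. With a small spread all 3 recovered nearly all changes, while with the spread of these libraries edgeR and voom recovered none and most DESeq2 calls were of unchanged genes. The SE beside each edgeR log2 fold change was back-calculated, because the quasi-likelihood test reports none. It is the absolute log2 fold change divided by the square root of the F statistic. Ratios are of pooled counts over pooled library totals and carry exact 95% counting intervals. Gene positions and promoter windows are from RefSeq (GRCm38.p6).

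The members and lists were chosen with earlier results of these data known. Values in every library are given for the 3 members of each family with the highest mean FPKM, the 6 tested members with the smallest p in each direction, members detected in all 6 libraries, members whose genotypes do not overlap with a mean of at least 10 CPM in 1 genotype, and the core subunits Polr1a, Polr2a, Polr3a, Med1, Med12, Med14, Med17 and Taf1. Other members are named as examples, some after their values were seen.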

Additional observations from a re-analysis of the deposited data

How the results depend on the processing

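Med20, Taf1 and Gtf2f1 passed an adjusted p of 0.05 with DESeq2 (log2 fold changes 11.81, 8.53 and 6.65), as did Snapc3 (8.63), and Med20 with limma voom (10.41). The number of members past that threshold was 0 by edgeR, 3 by DESeq2 and 1 by limma voom, and of all genes 0, 305 and 88. DESeq2 gave no p to Gtf2e2, Polr2j, Gtf3c1 and Polr2a, among other genes, and its shares count such genes as tested. Both limma fits on FPKM, DESeq2 size factors, no filter and the replicate block gave 0 members past that threshold. Leaving out 1 library gave 0 to 7 genes past it (2 without Cre 1, 0 without Cre 2 or Cre 3, and 7, 3 and 4 without controls 1, 2 and 3) and 0 members. The members with an unadjusted p under 0.05 were 2 by edgeR (3.51%, against 4.91% of all genes tested), 4 by DESeq2 (7.02% against 8.5%), 6 by limma voom (10.5% against 12.2%), 6 and 6 by limma on log2(FPKM + 1) and log2(FPKM + 0.1) (10.5% against 7.39% and 8.31%), 8 with no filter (7.55% of 106 against 2.94% of 22413), 1 with the replicate block (1.75% against 3.44%), and 2 to 5 with 1 library left out (2.86% to 7.46% against 4.2% to 6.11%; 5, 4 and 2 without Cre 1, 2 and 3, and 5, 5 and 4 without controls 1, 2 and 3). The sample titles do not say whether libraries with the same number were paired. Deviations of same-numbered libraries correlated at -0.025, 0.028 and -0.0085 over genes, against -0.047 to 0.053 for libraries with different numbers. With the wide spread between libraries, these values do not decide whether the libraries were paired. Of 19 log2 fold changes given with all libraries, 4 turned round. Gtf3c1, at -2.83, ran from -12.69 to 2.26 with 1 library left out. Polr3k, at -0.19, was 4.04 by limma voom, 1.53 and 2.63 by limma on log2(FPKM + 1) and log2(FPKM + 0.1), 1.40 with the replicate block and -1.71 to 14.05 with 1 library left out. Polr2k, at 0.14, was -0.12 with DESeq2 and with its size factors and -0.17 to 0.57 with 1 library left out. Gtf2h5, at 0.12, was -0.15 with both, -0.039 by limma voom and -0.28 to 0.34 with 1 library left out. The median of the 1 tested Polr3 member was 4.04 by limma voom and 10.1 (5 members) without control 1 or control 2, and the Taf median was 5.61 with the replicate block, 3.78 without control 3 and -0.55 without control 1. The Polr1 median, 1.06, was -1.82 with no filter (8 members). Leaving control 3 out of the count of non-overlapping members, an alternative chosen after the data were seen, gave 14 above and 5 below. The difference in members detected between genotypes, 18 with all libraries, ran from 14.3 to 20.7 over 9 alternatives. The cause of these changes was not tested. With 3 libraries per genotype, an exact permutation test of a single value cannot go below p = 0.1.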
